A study of Mus musculus with 6 samples.

Results

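The axon guidance families are the semaphorins with their plexin and neuropilin receptors, the ephrins with the Eph receptors, the Slits with the Robos, and the netrins with Dcc and the Unc5 receptors. Their genes were taken from the deposited expression table by symbol, which gave 69 of 24028 genes, 35 ligands and 34 receptors. Expression was measured by RNA sequencing in mouse oocytes of the germinal vesicle stage, which rest in meiotic prophase. The 3 dKO libraries came from Ring1 -/-; Rnf2 f/f; Zp3-cre females and the 3 control libraries from Ring1 -/-; Rnf2 f/f females without the transgene, all of about 3 months and on a mixed FVB, 129/Sv and C57BL/6J background. Both groups therefore lacked Ring1, and the comparison asks what changed on the further loss of Rnf2, the other catalytic subunit of Polycomb repressive complex 1 (PRC1). Zp3-cre is driven by a promoter active in growing oocytes and was carried by dKO females only, so an effect of the transgene and the loss of Rnf2 cannot be told apart. Each library held RNA of 15 oocytes pooled from 1 female. More oocytes with a transcript and more RNA per oocyte therefore cannot be told apart.

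Axon guidance cues attract or repel growing neurites, and most also act outside the nervous system on cell migration, adhesion and vessel growth. Class 3 semaphorins are secreted and bind neuropilins, which signal through plexins, while most other semaphorins are membrane-bound and bind plexins directly. A-class ephrins are tethered to the membrane by a lipid anchor and mainly bind EphA kinases, and B-class ephrins span the membrane and mainly bind EphB kinases. Slits are secreted repellents sensed by Robos, and netrins attract through Dcc and repel through Unc5 receptors. PRC1 represses many developmental genes whose promoters lie in CpG islands, stretches rich in the dinucleotide CG.

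The promoters of 5 of the genes are shown. Nrp2, a neuropilin, Sema3a, a secreted semaphorin, Epha7, an ephrin receptor, and Slit2, a repellent, are 4 of the 5 genes with the largest rises, and Unc5c, the most abundant of the 69 genes, did not pass the test. Each is the 250 bases before the annotated start in RefSeq (GRCm38.p6), with CG dinucleotides in capitals.
Nrp2 (chr1:62703067-62703316, plus strand): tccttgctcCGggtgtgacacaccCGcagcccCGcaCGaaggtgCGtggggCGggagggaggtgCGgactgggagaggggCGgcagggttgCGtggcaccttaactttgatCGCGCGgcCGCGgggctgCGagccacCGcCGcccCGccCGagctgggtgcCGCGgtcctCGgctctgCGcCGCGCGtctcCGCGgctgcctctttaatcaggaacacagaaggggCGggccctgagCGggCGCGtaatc
Sema3a (chr5:13396534-13396783, plus strand): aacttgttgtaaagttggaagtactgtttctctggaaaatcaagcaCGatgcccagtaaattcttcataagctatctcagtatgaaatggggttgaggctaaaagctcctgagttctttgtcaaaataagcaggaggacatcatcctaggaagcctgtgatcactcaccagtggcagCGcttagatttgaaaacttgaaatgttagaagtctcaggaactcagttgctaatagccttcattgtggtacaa
Epha7 (chr4:28812881-28813130, plus strand): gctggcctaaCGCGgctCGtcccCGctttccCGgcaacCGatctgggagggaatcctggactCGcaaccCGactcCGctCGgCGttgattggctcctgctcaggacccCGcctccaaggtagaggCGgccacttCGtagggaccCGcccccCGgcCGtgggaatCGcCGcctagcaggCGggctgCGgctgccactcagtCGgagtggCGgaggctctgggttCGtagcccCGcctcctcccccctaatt
Slit2 (chr5:47982905-47983154, plus strand): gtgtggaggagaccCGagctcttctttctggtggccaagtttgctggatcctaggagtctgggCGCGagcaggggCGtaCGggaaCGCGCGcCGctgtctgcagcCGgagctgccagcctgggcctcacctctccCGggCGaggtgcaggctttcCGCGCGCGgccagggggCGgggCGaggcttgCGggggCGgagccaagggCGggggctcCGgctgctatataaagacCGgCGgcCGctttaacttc
Unc5c (chr3:141465314-141465563, plus strand): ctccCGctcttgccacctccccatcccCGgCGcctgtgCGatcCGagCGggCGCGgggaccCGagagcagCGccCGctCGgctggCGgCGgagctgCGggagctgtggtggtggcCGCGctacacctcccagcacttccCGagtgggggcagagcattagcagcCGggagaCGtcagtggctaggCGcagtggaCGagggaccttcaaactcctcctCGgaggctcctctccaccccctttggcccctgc

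The Nrp2 stretch held 32 CG dinucleotides, those of Epha7 and Slit2 held 25 each, that of Unc5c held 23 and that of Sema3a held 2. Of the 69 genes 59 matched a RefSeq promoter, and where a gene had several the highest count was taken. The median was 14 among the 17 matched genes that rose, 19 among the 22 that were tested and did not pass, and 17.5 among the 20 below the expression filter. The medians over all genes of the table were 11 for the 16892 with a promoter and 17 for the 8534 of them that were tested. At least 1 CG stood in every matched axon guidance promoter and in 93.4% of all. The motif GGGCGG, searched on both strands, was in 52.9% of the promoters of the rising genes, 86.4% of those of tested members that did not pass, 62.9% of those of all tested genes, 63.9% of those of all genes called higher and 46.5% of all. GGGCGG contains a CG, so the motifs overlap. The rising genes thus had the lowest median CG count of these 3 sets of members, but the sets overlapped widely. Their counts ran from 2 to 32 for rising, 2 to 35 for not passing and 2 to 46 below the filter. Over all genes the median was 16 among those called higher and 17 among those tested and not called. A motif match is a description of the letters in this window.

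Absolute depth is unknown. Relative depth read from low values was 0.661, 0.805 and 1.08 in dKO replicates 1 to 3, against 1, 0.903 and 1.02 in controls, so low values were least precise in dKO replicate 1. Rnf2 stood at 14.8, 8.44 and 5.31 FPKM (fragments per kilobase of transcript, scaled to the mapped fragments of a library) in dKO oocytes, against 53.7, 46.8 and 48.2 FPKM in controls, all dKO values lying below all controls. Ring1 averaged 0.121 ± 0.113 FPKM in dKO oocytes and 0.0498 ± 0.0420 FPKM in controls (SD, n = 3 each). All 12 oocyte markers were at 1 FPKM or more in every library, with a summed level of 5391 to 7533 FPKM in dKO libraries and 9268 to 9641 FPKM in controls. Of these 12 markers 4 fell (33.3%, against 7.04% of all tested genes, limma). With no filter on low values only 1 of the 12, Kit, fell (8.33%, against 2.68% of all genes). Some markers of other ovarian cells differed between the groups, and not all in 1 direction. Of 15 granulosa and cumulus markers 7 could be tested and 4 of these rose. Of these 4 Fshr, Inhba and Has2 averaged under 1 FPKM in controls and could be tested only through their dKO values. With no filter on low values, 4 of the 14 above 0 rose (28.6%, against 9.88% of all genes). The sum of the 15 was 72.8 to 76.4 FPKM in dKO libraries and 47.1 to 53.9 FPKM in controls. Fshr, the receptor of follicle-stimulating hormone, stood at 11.6, 11.1 and 9.24 FPKM in dKO oocytes, against 0.179, 0.149 and 0.146 FPKM in controls, while Ptx3 was listed at 0 in every library and Foxl2 did not exceed 0.586 FPKM. Cyp19a1, the aromatase gene, went the other way, at 5.23, 6.19 and 5.93 FPKM in dKO oocytes, against 11.3, 7.60 and 10.9 FPKM in controls, without passing (difference -0.67, limma adjusted p = 0.05004). Amh averaged 0.346 ± 0.297 FPKM in dKO oocytes and 0.692 ± 0.562 FPKM in controls (SD, n = 3 each), with overlap. The 8 theca and stroma markers summed to 6.01 to 10.01 FPKM in dKO libraries and 1.02 to 1.18 FPKM in controls. With no filter on low values, 5 of the 8 rose (62.5%, against 9.88% of all genes). Past the filter only Nr2f2 could be tested, through its dKO values, and nothing is read from its call. Of the 4 endothelial markers 2 could be tested and 1, Pecam1, fell (50%, against 7.04% of all tested genes). With no filter Pecam1 was not called (limma adjusted p = 0.0505). Kdr and Tek were higher in every dKO library than in any control, without passing, and Cdh5 did not exceed 0.0317 FPKM. The sum of the 4 was 19.4 to 25.3 FPKM in dKO libraries and 24.2 to 33.1 FPKM in controls, with overlap. The 6 blood and immune markers summed to 1.66 to 7.55 FPKM in dKO libraries and 3.68 to 6.17 FPKM in controls, with overlap. The groups also differ in the sequencing index, 1 index for all dKO libraries and another for all controls, so index and genotype cannot be told apart. The part of these cells in the results below was not tested.

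Axon guidance genes rose more often than they fell in dKO oocytes, and most of those that rose averaged under 1 FPKM in controls. So did 1414 of the 2006 genes of the whole table that rose with no filter. With no filter on low values, 20 of the 67 genes above 0 in any library rose (29.9%) and 2 fell (2.99%), against 9.88% and 2.68% of all 20310 such genes (limma, Benjamini-Hochberg adjusted p under 0.05). The median difference on the log2(FPKM + 1) scale was 0.17 over these 67 genes and 0.029 over all. Among the 36 with a control mean under 1 FPKM, 16 rose (44.4%) and 1 fell (2.78%), against 14.4% and 0.733% of all genes at that level. 

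The tests below come from a fit limited to genes that reached 1 FPKM in 3 or more libraries. Of the axon guidance genes 44 passed this filter. Among these 18 rose (40.9%) and 1 fell (2.27%), while 14% of all 11334 tested genes rose and 7.04% fell. Of the 18 rises 12 had a control mean under 1 FPKM and passed the filter through their dKO values. Nothing is therefore read from the gap between 40.9% and 14%. The 31 members with a control mean of at least 1 FPKM all passed the filter. Of these 31 members 6 rose (19.4%) and 1 fell (3.23%), against 7.77% and 7.73% of all tested genes at that level. The filter keeps a gene silent in controls only where dKO values are high: 12 of the 13 tested members with a control mean under 1 FPKM rose, beside 77.4% of all such genes, and nothing is read from that count. All differences and confidence intervals (CI) given are dKO minus control on the log2(FPKM + 1) scale. This scale compresses the change of low genes. The dKO and control libraries did not overlap at 41 of the 67 genes, with dKO higher at 33 (49.3%, against 22.3% of all genes) and lower at 8 (11.9%, against 12.5%). The number of genes of these families at 1 FPKM or more was 44, 47 and 48 in dKO libraries and 32, 30 and 34 in controls, a difference of 14.3 (p = 0.1 in an exact permutation test, two-sided, and no smaller p is possible with 3 libraries a group). Over all genes this number was also higher in every dKO library, at 11552, 11717 and 11188, against 10524, 10381 and 10251 in controls.

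**Figure D1:**
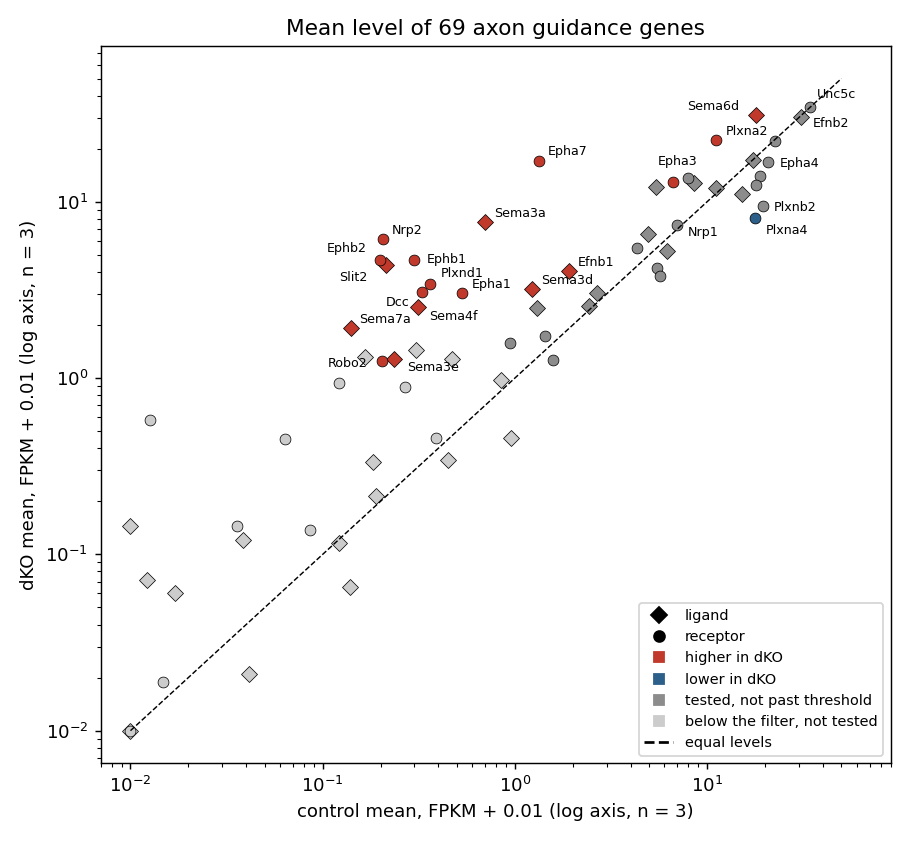
Mean FPKM of each of the 69 genes in dKO oocytes (vertical) against controls (horizontal), both with 0.01 added and on log axes, n = 3 libraries each. Diamonds are ligands and circles receptors, and colour gives the call. The 18 rising genes lie above the dashed line of equal levels, 12 of them left of 1 FPKM in controls, while Unc5c and Efnb2 lie at the line.

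Among the 7 secreted class 3 semaphorins, 2 of the 6 above 0 rose with no filter (33.3%, against 9.88% of all genes). Past the filter, which favours genes that are high in dKO oocytes, 3 were tested and called higher. Sema3a, a repellent of axons that binds neuropilin 1, stood at 6.81, 6.28 and 9.81 FPKM in dKO oocytes, against 0.709, 0.338 and 1.02 FPKM in controls. The lowest dKO library was over every control, and the difference was 2.35 ± 0.24 (SE; limma adjusted p = 0.000249). Sema3d held 4.27, 2.62 and 2.68 FPKM in dKO oocytes, against 1.22, 0.789 and 1.63 FPKM in controls, a difference of 0.92 ± 0.24 (SE; limma adjusted p = 0.0245). Sema3e, which binds plexin D1 without a neuropilin, held 1.74, 1.01 and 1.09 FPKM in dKO oocytes, against 0.246, 0.0749 and 0.355 FPKM in controls (difference 0.89, limma adjusted p = 0.0102). Neither gene's groups overlapped, but both calls were lost after quantile normalization (limma adjusted p = 0.132 for Sema3d and 0.403 for Sema3e) and without control replicate 2 (0.118 and 0.0604). Sema3d also lost its call with no filter (0.0733) and without dKO replicate 1 (0.0579) or control replicate 1 (0.0821). Sema3c, below the filter, averaged 1.42 ± 1.06 FPKM in dKO oocytes and 0.295 ± 0.0826 FPKM in controls (SD, n = 3 each). Its dKO values were 2.65, 0.866 and 0.756 FPKM, all above the highest control at 0.390 FPKM. Only replicate 1 exceeded 1 FPKM, and with no filter the gene was not called (limma adjusted p = 0.136). Sema3b averaged 0.335 FPKM in dKO oocytes and 0.439 FPKM in controls, Sema3f 0.204 and 0.179 FPKM, and Sema3g was listed at 0 in every library.

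These class 3 genes share a position. In RefSeq on GRCm38 Sema3d and Sema3a are neighbours on chromosome 5 with 0 protein-coding genes between them, and Sema3e follows Sema3a after 3. Sema3c lies on the same chromosome. Sema3b and Sema3f, both below the filter, are on chromosome 9 with 3 protein-coding genes between them. Summed over the class, the level was 15.8, 11.6 and 14.8 FPKM in dKO oocytes, against 2.98, 2.25 and 3.90 FPKM in controls.

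Some membrane-bound semaphorins were more abundant in controls than any class 3 semaphorin. Past the filter the calls of the membrane-bound genes were all rises, and Sema4c was called lower only with no filter. Sema6d, a transmembrane semaphorin that binds plexin A1, was the most abundant semaphorin at 27.4, 32.1 and 33.7 FPKM in dKO oocytes, against 16.7, 18.1 and 19.1 FPKM in controls. The groups did not overlap (difference 0.75 ± 0.16, SE; limma adjusted p = 0.00931), though without control replicate 1 the adjusted p was 0.0574. Sema4f rose to 2.83, 1.87 and 2.81 FPKM in dKO oocytes, against 0.333, 0.147 and 0.429 FPKM in controls (difference 1.42, limma adjusted p = 0.00107). Sema7a, which is anchored by a lipid and binds plexin C1, rose to 1.95, 2.43 and 1.36 FPKM in dKO oocytes, against 0.230, 0.128 and 0.0308 FPKM in controls (difference 1.35, limma adjusted p = 0.00123). Both were thus low genes even where they rose. The other abundant ones did not pass the test. Sema4d, a ligand of plexin B1, averaged 11.1 ± 2.92 FPKM in dKO oocytes and 15.2 ± 1.71 FPKM in controls (difference -0.44, 95% CI -0.95 to 0.06; limma adjusted p = 0.187). Sema5a averaged 17.1 ± 5.30 and 17.4 ± 2.40 FPKM in dKO and control oocytes (95% CI -0.59 to 0.48), and Sema4b 12.8 ± 4.17 and 8.51 ± 1.17 FPKM (95% CI -0.07 to 1.07; SD, n = 3 each). Sema6a held 1.13, 2.63 and 5.28 FPKM in the 3 dKO libraries, against 2.11, 3.21 and 2.68 FPKM in controls, which lay within the dKO range. Sema4c, below the filter, was lower in every dKO library, at 0.540, 0.443 and 0.363 FPKM, against 0.964, 0.840 and 1.02 FPKM in controls, and was 1 of the 2 genes called lower with no filter (limma adjusted p = 0.0480). The other 5 membrane-bound semaphorins, Sema4a, Sema4g, Sema5b, Sema6b and Sema6c, had means under 1 FPKM in both groups.

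On the receptor side, the 2 neuropilins parted. Nrp2 rose to 6.66, 6.07 and 5.70 FPKM in dKO oocytes, against 0.0837, 0.199 and 0.307 FPKM in controls, a ratio of means of 31.3. The 3 dKO values lay close together and far above the controls (difference 2.58 ± 0.18, SE; limma adjusted p = 3.79e-05). Nrp1, which overlaps a microRNA gene, held 6.53, 7.38 and 8.25 FPKM in dKO oocytes, against 6.68, 6.07 and 8.07 FPKM in controls, and the groups overlapped (difference 0.08, 95% CI -0.36 to 0.53; limma adjusted p = 0.796). Nrp2 thus made up 45.5 ± 4.82% of the neuropilin FPKM in dKO oocytes and 2.69 ± 1.28% in controls (SD, n = 3 each).

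The 9 plexins moved in both directions. Plxna2, a receptor of class 6 semaphorins and a partner of neuropilins, rose to 21.0, 23.0 and 23.0 FPKM in dKO oocytes, against 10.5, 12.2 and 10.7 FPKM in controls (difference 0.94 ± 0.16, SE; limma adjusted p = 0.00324). Plxnd1, the Sema3e receptor, rose to 1.99, 4.54 and 3.73 FPKM in dKO oocytes, against 0.202, 0.430 and 0.419 FPKM in controls (difference 1.67, limma adjusted p = 0.00173). Plxna4 was the 1 gene of the 44 that fell, to 5.82, 8.19 and 10.2 FPKM in dKO oocytes, against 19.2, 16.1 and 17.7 FPKM in controls (difference -1.07 ± 0.22, SE; limma adjusted p = 0.00854). Every dKO library was below every control for it, and its exons overlap the antisense gene Plxna4os3, from which it cannot be told apart without stated strand. Plxnb2, a receptor of class 4 semaphorins, was also below every control in dKO oocytes, at 3.996, 11.9 and 12.5 FPKM, against 21.0, 20.0 and 17.5 FPKM, but did not pass (difference -1.10, 95% CI -1.90 to -0.29; limma adjusted p = 0.0577). With the replicate number as a block, which pairs libraries of 1 flow-cell lane, it passed (limma adjusted p = 0.0302), so 2 genes of these families fell in that fit. Over all alternatives its adjusted p was 0.0271 to 0.158. Plxna1, the most abundant plexin over all libraries, averaged 22.0 ± 7.83 FPKM in dKO oocytes and 22.7 ± 6.49 FPKM in controls (SD, n = 3 each; 95% CI -0.70 to 0.60). Plxnc1 and Plxnb1 had dKO values below every control without passing (differences -0.40 and -0.32, limma adjusted p = 0.114 and 0.297), and Plxna3 and Plxnb3 stayed under 0.2 FPKM in every library. Exons of Plxna1, Plxnb1 and Plxnc1, and likewise of Sema4a, Sema4c, Efna3, Efna4, Epha6, Epha10, Ntn3 and Ntn5, overlap those of another annotated gene. Between the ligands and receptors of 1 system, Sema3e and Plxnd1 both rose, whereas of the Sema7a pair Sema7a rose and Plxnc1 averaged 14.1 ± 1.34 FPKM in dKO oocytes and 18.9 ± 1.63 FPKM in controls (SD, n = 3 each).

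**Figure D2:**
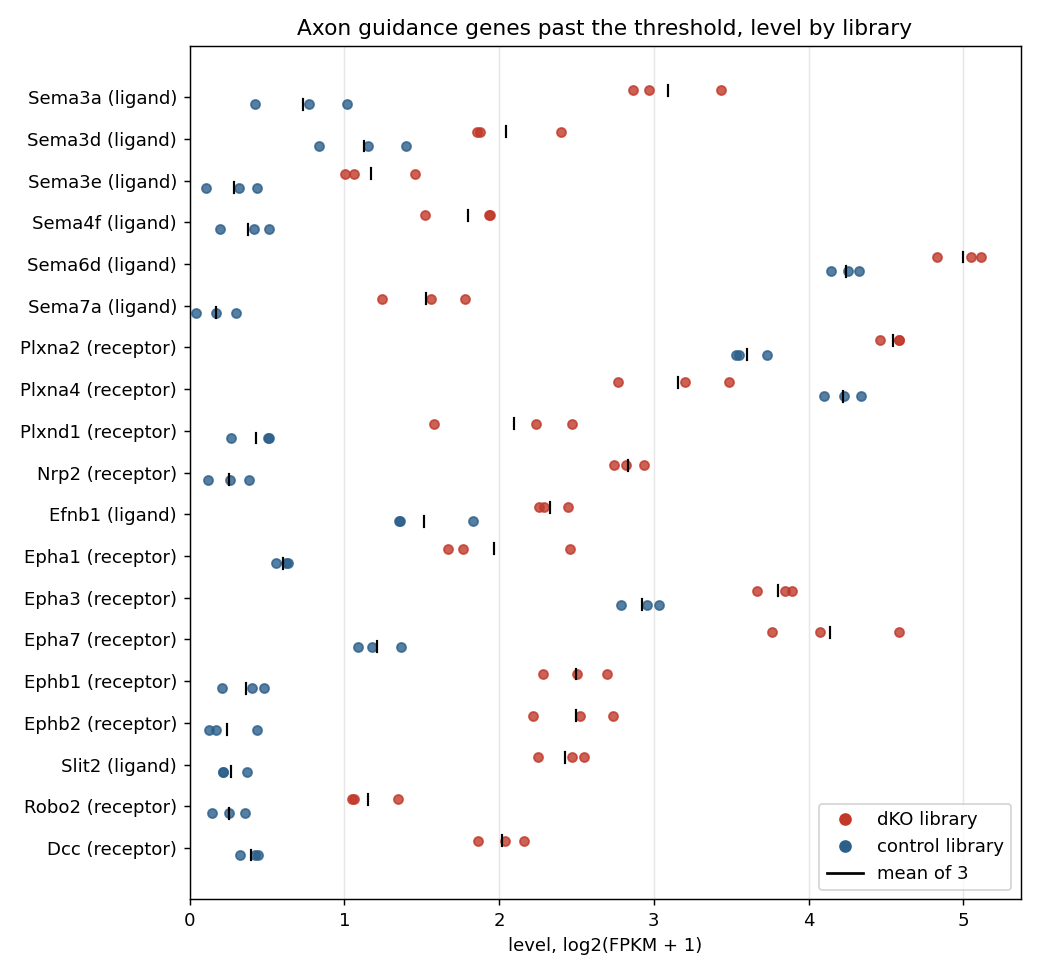
Level of the 19 genes past the threshold in each library, as log2(FPKM + 1), with the 3 dKO libraries above the 3 controls of each gene and the mean as a bar. The groups do not overlap for any of the 19, and Plxna4 is the gene whose dKO points lie left of its controls.

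Of the 14 Eph receptors, kinases that signal on contact with a neighbouring cell, 7 rose with no filter (50%, against 9.88% of all genes). Past the filter 10 were tested and 5 rose. Of these 5 Epha1, Ephb1 and Ephb2 had control means under 1 FPKM and passed the filter through their dKO values. The filtered share is therefore not set against that of all genes. Epha7 rose to 15.8, 12.6 and 23.0 FPKM in dKO oocytes, against 1.13, 1.26 and 1.58 FPKM in controls, the largest difference of the 44 tested genes (2.93 ± 0.25, SE; limma adjusted p = 8.01e-05). Epha3 held 11.7, 13.4 and 13.9 FPKM in dKO oocytes, against 5.91, 7.17 and 6.74 FPKM in controls (difference 0.88, limma adjusted p = 0.00865), and without control replicate 1 its adjusted p was 0.0527. Epha1, whose exons overlap those of Zyx, rose to 2.40, 4.50 and 2.18 FPKM in dKO oocytes, against 0.555, 0.538 and 0.473 FPKM in controls (difference 1.36, limma adjusted p = 0.00379). The groups overlapped for none of these. Epha4, which binds ephrins of both classes and was the most abundant Eph receptor in controls, held 18.0, 18.0 and 14.6 FPKM in dKO oocytes, against 20.5, 21.9 and 20.1 FPKM in controls. Its dKO values lay below all controls, but it did not pass (difference -0.30, 95% CI -0.66 to 0.07; limma adjusted p = 0.220). The makeup of the EphA class differed between the groups. Epha4 held 31.3 ± 5.18% of its summed FPKM in dKO oocytes and 65.0 ± 1.003% in controls, and Epha7 31.4 ± 8.21% in dKO oocytes and 4.13 ± 0.774% in controls (SD, n = 3 each). Epha6 and Epha10 did not pass (95% CI -0.28 to 0.60 and -0.01 to 0.85), and Epha2, Epha5 and Epha8 were below the filter. Epha2 was at 0.418, 0.450 and 0.454 FPKM in dKO oocytes, against 0.0863, 0.0668 and 0.00846 FPKM in controls, and rose with no filter (limma adjusted p = 0.00367).

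Both Ephb1 and Ephb2, kinases activated by B-class ephrins, rose. Ephb1 held 3.87, 5.50 and 4.68 FPKM in dKO oocytes, against 0.393, 0.156 and 0.320 FPKM in controls (difference 2.13 ± 0.19, SE; limma adjusted p = 0.000124), and its exons overlap the predicted gene Gm26846. Ephb2 held 3.66, 4.75 and 5.67 FPKM in dKO oocytes, against 0.0913, 0.354 and 0.124 FPKM in controls (difference 2.25 ± 0.20, SE; limma adjusted p = 0.000125). Ephb4, whose exons overlap Zan, and Ephb6, which lacks kinase activity, were the EphB genes already present in controls. Ephb4 averaged 5.44 ± 1.66 FPKM in dKO oocytes and 4.30 ± 1.01 FPKM in controls (95% CI -0.31 to 0.85), and Ephb6 3.80 ± 1.27 FPKM in dKO oocytes and 5.70 ± 0.177 FPKM in controls (95% CI -1.05 to 0.02; SD, n = 3 each). Ephb1 held 24.6 ± 1.07% of the EphB FPKM in dKO oocytes and 2.82 ± 1.26% in controls, and Ephb2 24.8 ± 4.79% in dKO oocytes and 1.77 ± 1.19% in controls (SD, n = 3 each). Ephb3 was at 0.691, 0.771 and 0.249 FPKM in dKO oocytes, against 0, 0 and 0.00800 FPKM in controls. It was below the filter and rose in the fit with no filter (limma adjusted p = 0.0361), as did Plxna3 (0.0220).

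Of the 8 ephrins, the ligands of these receptors, 6 were tested and 1 rose (16.7%), a share near the 14% of all tested genes, and with no filter limma called 0 of the 8 higher (3 at an unadjusted p under 0.05). Efnb1 held 3.79, 3.88 and 4.43 FPKM in dKO oocytes, against 1.57, 2.56 and 1.56 FPKM in controls (difference 0.81 ± 0.21, SE; limma adjusted p = 0.0255). Its groups did not overlap, but it was not past the threshold with array weights, quantile normalization, no filter, or without control replicate 1 or 3, with adjusted p up to 0.126. Efnb2, the most abundant ephrin, held 23.8, 31.6 and 35.8 FPKM in dKO oocytes, against 27.3, 31.6 and 34.0 FPKM in controls (difference -0.04, 95% CI -0.46 to 0.39; limma adjusted p = 0.901). Efna5 held 12.1, 11.9 and 11.7 FPKM in dKO oocytes, against 11.3, 11.2 and 10.9 FPKM in controls (95% CI -0.27 to 0.45), a narrow spread in both groups. Efna1, Efna3 and Efna4 stand side by side on chromosome 3 in RefSeq, with 0 protein-coding genes between neighbours, and all 3 had higher means in dKO oocytes. Efna1 held 7.80, 16.4 and 12.1 FPKM in dKO oocytes, against 2.51, 6.35 and 7.30 FPKM in controls, and did not pass (difference 1.07, 95% CI 0.24 to 1.90; limma adjusted p = 0.0694). With the replicate block it passed (limma adjusted p = 0.00864, and 0.00864 to 0.203 over all alternatives). Efna3 averaged 1.27 ± 0.402 FPKM in dKO oocytes and 0.464 ± 0.107 FPKM in controls and was below the filter, and Efna4 averaged 6.52 ± 1.14 FPKM in dKO oocytes and 4.95 ± 1.57 FPKM in controls (95% CI -0.20 to 0.92; SD, n = 3 each). Efna2 averaged 5.27 FPKM in dKO oocytes and 6.19 FPKM in controls (95% CI -1.04 to 0.48), and Efnb3 did not exceed 0.0946 FPKM in any library.

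**Figure D3:**
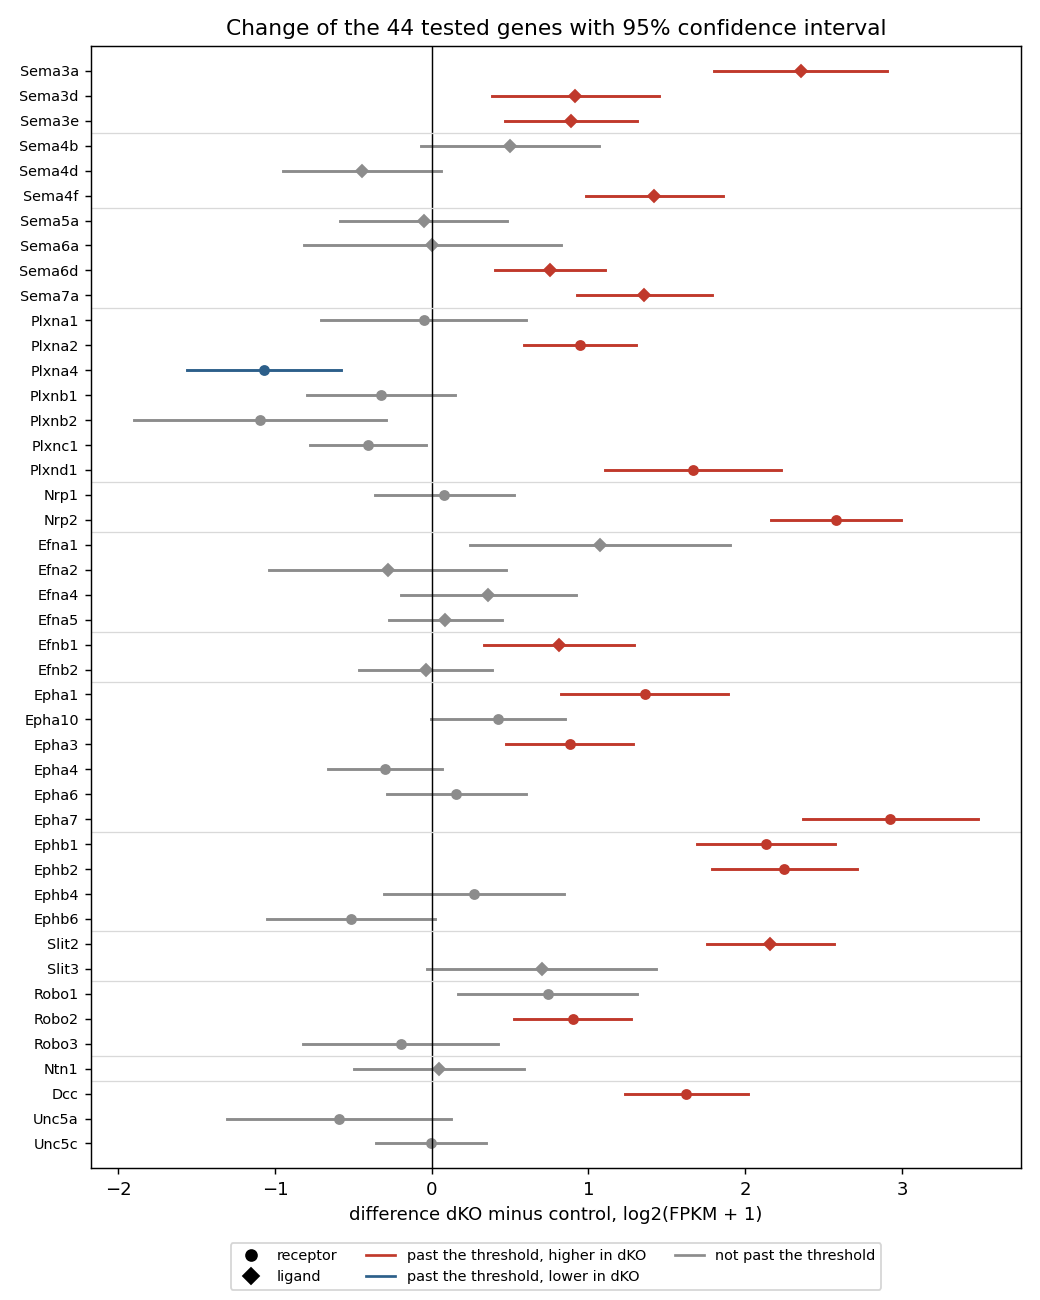
Difference dKO minus control on the log2(FPKM + 1) scale for the 44 tested genes, with its 95% confidence interval, grouped by class. Diamonds are ligands and circles receptors. The 18 rises reach from 0.75 for Sema6d to 2.93 for Epha7, Plxna4 is the 1 fall at -1.07, and the intervals of Plxnb2, Plxnc1, Efna1 and Robo1 leave out 0 although their adjusted p was over the threshold.

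The Slit and Robo system gained a ligand and a receptor. Slit2, a secreted repellent, rose to 3.77, 4.85 and 4.55 FPKM in dKO oocytes, against 0.164, 0.160 and 0.291 FPKM in controls, a ratio of means of 21.4 (difference 2.16 ± 0.18, SE; limma adjusted p = 7.21e-05). Slit3 held 2.06, 2.94 and 2.48 FPKM in dKO oocytes, against 1.81, 0.238 and 1.81 FPKM in controls, where replicate 2 alone was low (95% CI -0.03 to 1.43; limma adjusted p = 0.155). Slit1 did not exceed 0.173 FPKM. Slit2 made up 63.4 ± 1.61% of Slit FPKM in dKO oocytes and 17.0 ± 11.6% in controls (SD, n = 3 each). Among the receptors, Robo2 rose to 1.54, 1.07 and 1.09 FPKM in dKO oocytes, against 0.283, 0.104 and 0.193 FPKM in controls (difference 0.90, limma adjusted p = 0.00524), a call lost after quantile normalization (limma adjusted p = 0.333). Its neighbour on chromosome 16, Robo1, was the abundant Robo, at 13.7 ± 2.82 FPKM in dKO oocytes and 7.95 ± 2.69 FPKM in controls (SD, n = 3 each). Its lowest dKO library, at 11.3 FPKM, was just over its highest control, at 10.99 FPKM, and it did not pass (difference 0.74, 95% CI 0.17 to 1.31; limma adjusted p = 0.0695) except without control replicate 3 (0.0439; 0.0439 to 0.238 over all alternatives). Robo3, which lets commissural axons cross the midline, averaged 1.26 ± 0.632 FPKM in dKO oocytes and 1.57 ± 0.660 FPKM in controls (SD, n = 3 each), and Robo4, an endothelial gene, was listed at 0 in every library.

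In the netrin system the receptor Dcc rose and the tested ligand did not pass. Dcc held 2.64, 3.11 and 3.46 FPKM in dKO oocytes, against 0.356, 0.253 and 0.343 FPKM in controls (difference 1.62 ± 0.17, SE; limma adjusted p = 0.000292). Unc5c, the highest of all 69 genes, held 29.7, 34.6 and 39.1 FPKM in dKO oocytes, against 34.2, 33.8 and 35.0 FPKM in controls, and its groups overlapped (difference -0.0034, 95% CI -0.35 to 0.35; limma adjusted p = 0.991). Its exons overlap the predicted gene Gm15688. Unc5a, which overlaps Hk3, held 6.48, 12.2 and 18.7 FPKM in the 3 dKO libraries, against 18.3, 18.8 and 16.5 FPKM in controls, so that dKO replicates 1 and 2 were below the controls and replicate 3 within their range (95% CI -1.30 to 0.12; limma adjusted p = 0.214). Dcc therefore remained a small part of the class, with 6.01 ± 0.534% of its FPKM in dKO oocytes and 0.6001 ± 0.107% in controls (SD, n = 3 each). Unc5b and Unc5d, below the filter, averaged 0.886 ± 0.152 and 0.926 ± 0.524 FPKM in dKO oocytes and 0.260 ± 0.183 and 0.112 ± 0.00628 FPKM in controls (SD, n = 3 each), with no overlap between groups, and Unc5b rose in the fit with no filter (limma adjusted p = 0.0420). Of the ligands, Ntn1 held 2.13, 3.39 and 2.09 FPKM in dKO oocytes, against 2.41, 3.15 and 1.73 FPKM in controls (95% CI -0.50 to 0.59). Ntn4 held 0.198, 1.14 and 2.56 FPKM in the 3 dKO libraries, against 0.306, 0.145 and 0.0143 FPKM in controls, and dKO replicate 1 lay within the controls. Ntn3 and Ntn5 had means under 0.2 FPKM in both groups.

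**Figure D4:**
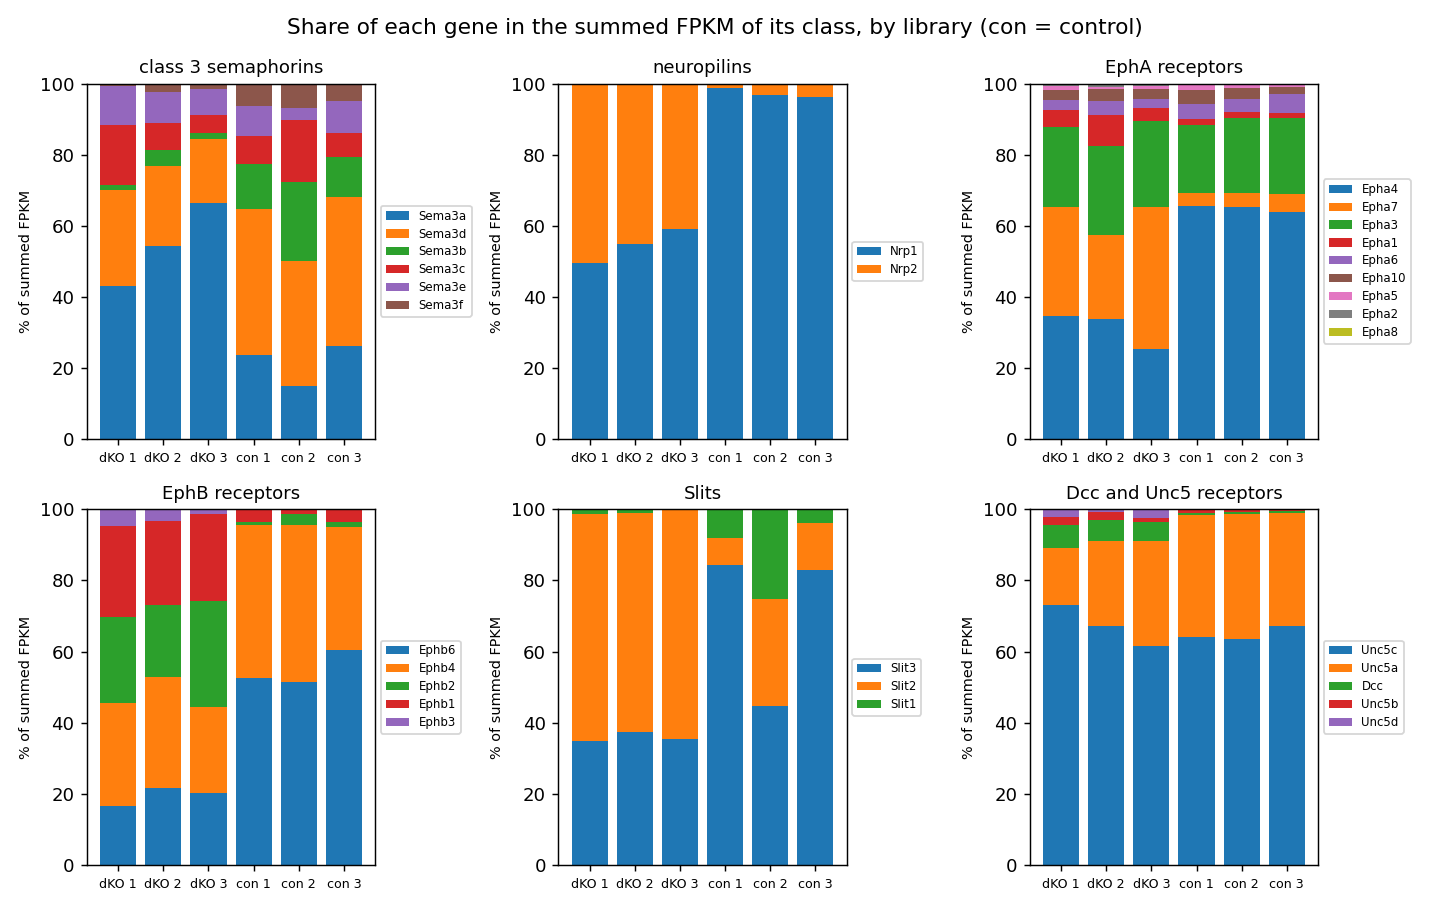
Share of each gene in the summed FPKM of its class, in percent, for 6 classes and each library, with dKO libraries 1 to 3 left of controls (con) 1 to 3. Nrp2, Epha7, Ephb1, Ephb2 and Slit2 take a larger share in every dKO library than in any control, while Unc5c holds most of its class in all 6 libraries.

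Ordered by mean level, the top 5 genes in dKO oocytes were Unc5c, Sema6d, Efnb2, Plxna2 and Plxna1, at 34.5 ± 4.70, 31.1 ± 3.23, 30.4 ± 6.09, 22.3 ± 1.13 and 22.0 ± 7.83 FPKM (SD, n = 3). In controls they were Unc5c, Efnb2, Plxna1, Epha4 and Plxnb2, at 34.4 ± 0.633, 31.0 ± 3.38, 22.7 ± 6.49, 20.9 ± 0.970 and 19.5 ± 1.83 FPKM (SD, n = 3). Summed over all 69 genes, the level was 362, 435 and 454 FPKM in dKO libraries, against 337, 341 and 344 FPKM in controls. The 38 genes with a control mean under 1 FPKM contributed 50.8, 58.3 and 58.6 FPKM in dKO libraries and 9.82, 8.23 and 9.70 FPKM in controls. These 38 were picked by their control values, so a low control sum is set by that choice and nothing is read from the gap. Among the 47 genes with a dKO mean of at least 1 FPKM, dKO replicate 1, the shallowest library, was the lowest of the 3 for 28. For the 18 rising genes it was the lowest for 9 and the highest for 5.

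Beyond ligands and receptors, genes that act with them were examined from 2 lists. Of 31 co-receptors and ligand partners 8 rose with no filter (25.8%) and 1 fell (3.23%), against 9.88% and 2.68% of all genes, and their median difference was 0.28, against 0.029 over all. Past the filter 17 were tested, 7 rose and 1 fell. Of these 7 Rgma, Dscaml1, Itga3, Ptprd and Flrt3 had control means under 1 FPKM, where the filter favours genes that are high in dKO oocytes, so the filtered share is not set against that of all genes. Flrt3, an adhesion protein that binds Unc5 receptors, rose to 11.6, 9.84 and 7.85 FPKM in dKO oocytes, against 1.13, 1.08 and 0.732 FPKM in controls (difference 2.43, limma adjusted p = 0.000108). Rgma, a ligand of the Dcc relative neogenin, rose to 2.39, 2.24 and 1.40 FPKM in dKO oocytes, against 0, 0.0737 and 0 FPKM in controls (limma adjusted p = 0.000520). The adhesion gene Dscaml1, the integrin gene Itga3 and Flrt1 had differences of 1.63, 1.48 and 1.42, and Flrt1 lost its call in 4 alternatives (limma adjusted p up to 0.0850). Ptprf, a receptor phosphatase, fell to 3.84, 6.35 and 6.04 FPKM in dKO oocytes, against 11.7, 11.5 and 9.76 FPKM in controls (difference -0.92, limma adjusted p = 0.0181), and lost its call without any 1 control (up to 0.0841).

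Of 55 cytoplasmic effectors 48 could be tested, and limma called 8 higher (16.7%, near the 14% of all tested genes). It called 0 lower, against 7.04% of all tested genes (4 lower at an unadjusted p under 0.05). The median difference was -0.096. Of the 8 rises, Srgap3 and Rnd1 had control means under 1 FPKM, where the filter favours genes that are high in dKO oocytes. With no filter 7 rose (12.7%, against 9.88% of all genes). Rras, a small GTPase switched off by plexins, rose to 5.77, 12.006 and 6.56 FPKM in dKO oocytes, against 1.52, 1.39 and 0.510 FPKM in controls (difference 2.06, limma adjusted p = 0.00179). Srgap3, a cytoplasmic protein bound by Robos, rose to 3.60, 2.59 and 1.41 FPKM in dKO oocytes, against 0.0152, 0.0410 and 0.00726 FPKM in controls (difference 1.74, limma adjusted p = 0.00109). The actin-binding Ablim3, Rnd1 and Dpysl5, of the collapsin response mediator family, had differences of 1.73, 1.70 and 1.51, all called. Rnd1 was not called with no filter (limma adjusted p = 0.0518).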

How the data were processed

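RNA of 15 pooled germinal vesicle oocytes per female was amplified with the Ovation v2 kit and sequenced on a HiSeq instrument, per the labels' protocols. The deposited values are FPKM, computed by the authors, with 1 column per library. TopHat2 2.0.11, Cufflinks 2.0.2 and build mm9 are named in the submitters' processing notes. The sources used here do not state their roles, the annotation or the use of strand, so overlapping genes cannot be told apart. Absolute depth is unknown, and no counting interval is given.

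Of 24525 rows 497 repeated another row and were removed, which left 24028 genes. A gene was kept where 3 or more libraries reached 1 FPKM (11334 genes). Values were taken as log2 after adding a pseudocount of 1 and fitted by limma 3.58.1 (R 4.3.3) with a mean-variance trend, two-sided, unpaired, with Benjamini-Hochberg adjustment over all kept genes and a threshold of 0.05. It was tested on simulated data. Per the labels, equal replicate numbers mark 1 flow-cell lane, and the 3 pairs' deviations from the group means correlated at 0.147, 0.107 and 0.0637, and 1 alternative took the lane pairs as blocks. Other alternatives were other pseudocounts, filters and scalings, array weights and the removal of each library, for which the kept genes were held fixed. Relative depth is the commonest ratio among values under 0.1 FPKM of the same gene. The members and lists were chosen with earlier results of these data known. Named by rule are all members past the threshold and the most abundant of each class. The rule also names members that the filter dropped with a mean of at least 1 FPKM in either group. It adds up to 5 rising and 5 falling genes of each list of partners and effectors. The other members were named after their values were seen. Each library is from 1 female, and the p-values measure the spread between libraries.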

Additional observations from a re-analysis of the deposited data

How the results depend on the processing

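Of the 19 axon guidance genes past the threshold, 13 stayed past it in every alternative in which they could be tested; the exceptions were Sema3d, Sema3e, Sema6d, Efnb1, Epha3 and Robo2. The number that rose was 6 with the filter at 5 FPKM, which leaves 12 of the 18 untested, and 14 to 19 on removal of 1 library (18 with all; 14 without control replicate 1, and Sema4b added without dKO replicate 3). The number that fell was 2 with no filter (Plxna4 and Sema4c), after median-ratio scaling, with array weights or with the replicate block (Plxna4 and Plxnb2 in each), and 1 to 3 on removal of 1 library. Removal of dKO replicate 3 added Unc5a and Plxnb2, and removal of dKO replicate 1 or 2 added Plxnb2. With the filter at 5 FPKM, 2 partners and 3 effectors rose. On removal of 1 library 0 to 2 partners and 0 to 3 effectors fell, the 3 without dKO replicate 2, and 1 effector fell after median-ratio scaling and after quantile normalization. Over all genes 655 rose with the filter at 5 FPKM and 231 to 1465 fell on removal of 1 library, against 1587 and 798; the 1465 were without dKO replicate 2, and 258, 262 and 231 without control replicates 1 to 3. The replicate block, which pairs libraries of 1 lane, gave 19 rises, with Efna1 added, and 2 falls, with Plxnb2 added, and changed no further call of an axon guidance gene. The share of rises among all calls was 66.5%, and 52.6% after quantile normalization, 54.0% with the filter at 5 FPKM, 78.6% with no filter, 51.7% without dKO replicate 2 and 80.6% to 82.7% without 1 control. The difference in detected genes of these families was 3.33 at 5 FPKM or more, against 14.3 at 1. The following genes, with a difference near 0 and none past the threshold, changed sign after quantile normalization: Plxna1 (0.023), Nrp1 (-0.017), Efnb2 (0.062), Ntn1 (-0.25) and Unc5c (0.096). On removal of 1 library Plxna1 ranged from -0.31 to 0.16, Efnb2 from -0.16 to 0.12, Ntn1 from -0.12 to 0.19 and Unc5c from -0.096 to 0.097. The cause of these changes was not tested. Depth, lowest in dKO replicate 1, limits the precision of values under 1 FPKM.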
